A study of Mus musculus with 5 samples.

Results

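Progenitors of mouse hindlimb muscle were compared between 2 states, before injury and at day 14 after it, to see which transcripts had not returned to their quiescent level. Cells were kept when they had at least 500 detected genes and at most 10% of their unique molecular identifiers (UMIs) on mitochondrial genes. Cells with 5 or more summed UMIs of the tendon genes Tnmd, Fmod, Kera and Chad, or of the mural genes Rgs5, Kcnj8, Abcc9 and Higd1b, were left out. The rule kept 4324 progenitors, 1900 from the quiescent library and 2424 from the day 14 library, of 5697 barcodes in these libraries and 17213 in the series of 5 libraries.

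All groups were C57BL/6J mice of genotype Hic1CreERT2/CreERT2;Rosa26LSLtdTomato/+. At 8 weeks of age they received 5 daily doses of tamoxifen, each 2.5 mg in 100 uL of sunflower oil, and then a washout of 10 days. Both copies of Hic1, a transcriptional repressor, carried the tamoxifen-dependent recombinase in every group, so the red reporter tdTomato marked cells that had expressed Hic1 and whatever cells descended from them. The quiescent group was taken from whole hindlimb muscle with no injury time in its label, and the day 14 group after notexin, a snake venom phospholipase that destroys muscle fibres. Each group was 1 library of sorted cells, and the labels used here do not say how many animals entered it. With 1 library a group there was no test: the library and the time point cannot be told apart. Values in parentheses after a fold or share are 95% intervals that cover counting error only.

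Mesenchymal progenitors, also called fibro-adipogenic progenitors, are Pdgfra-expressing cells that lie between muscle fibres and around vessels. After injury they leave quiescence, divide, secrete matrix and signals that act on muscle stem cells and immune cells, and then fall in number as the fibres are rebuilt. In resting muscle they keep up the connective tissue, and they are known to give rise to fat and scar where repair fails.

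The kept cells held 7309210 UMIs in the quiescent and 12451460 in the day 14 library, with medians of 3883 and 4937.5 UMIs a cell. The rule removed unequal shares: 126 quiescent and 808 day 14 cells met the tendon limit, and 112 and 247 the mural limit. Cells close to the limits were few, 5 quiescent and 24 day 14 progenitors having 4 tendon UMIs and 4 and 14 removed cells having 5. At a mural count of 4 there were 0 and 2 progenitors. The 2 sets of progenitors shared 7 barcodes. Summed over the 9 progenitor markers, among them Pdgfra, Dcn and Cd34, the level was 36260 in the quiescent and 35999 CPM in the day 14 library. CPM are counts scaled to the same total for the summed cells of each library. All 9 markers of the labelled cell type were thus present in both. Markers of other types were at lower summed levels and differed between the libraries, from 238 to 362 CPM for tenocytes (quiescent to day 14), 302 to 315 CPM for mural cells, 647 to 800.1 CPM for Schwann cells, 35.3 to 68.1 CPM for perineurial cells, 74.8 to 94.7 CPM for muscle stem cells and myoblasts, 30.1 to 62.9 CPM for fibres, 50.3 to 27.9 CPM for endothelial cells and 18.2 to 5.62 CPM for adipocytes. Immune markers summed to 3.56 and 4.26 CPM and erythroid markers to 2.19 and 0.562 CPM. At 0 UMIs in both libraries were Ptprc and Adgre1 of leukocytes, Cldn5 of endothelium, Myog of myoblasts and Adipoq of fat cells, among others. With at least 20 CPM, 3 of 4 tenocyte, 2 of 3 Schwann and 1 of 1 perineurial markers were at least 2-fold higher at day 14, and none of the mural, myogenic or endothelial ones. The tenocyte and mural lists hold the genes that the rule limits, so their sums and calls were partly set by the rule. Of the tenocyte calls, Tnmd and Fmod are such genes and Comp is not. Free RNA and doublets were not removed, and their part in the differences was not tested.

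At day 14 the progenitors lay close to their quiescent profile. Of 5757 genes that reached 20 CPM in 1 or both libraries, 5377 (93.4%) were within 1.5-fold, and the median log2 ratio over the 9845 genes with at least 5 CPM was 0.00. At least 2-fold higher at day 14 were 60 genes, 1.04% of those compared, and 37 genes, 0.643%, were at least 2-fold lower. The higher genes took in lipid carriers, lysosomal proteins, matrix proteins and the imprinted RNA H19, and the lower genes clock repressors, glucocorticoid-responsive regulators and Hes1. Of the 60 higher genes 13 were predicted genes or pseudogenes and 1 was Rpl9. The 37 lower genes took in 5 predicted genes, 4 genes of ribosomal proteins and 2 mitochondrial genes. Genes named below as highest or lowest leave out these kinds, the genes of the rule and markers of other cell types, and need at least 50 CPM. All named values are differences between 2 libraries.

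**Figure D1:**
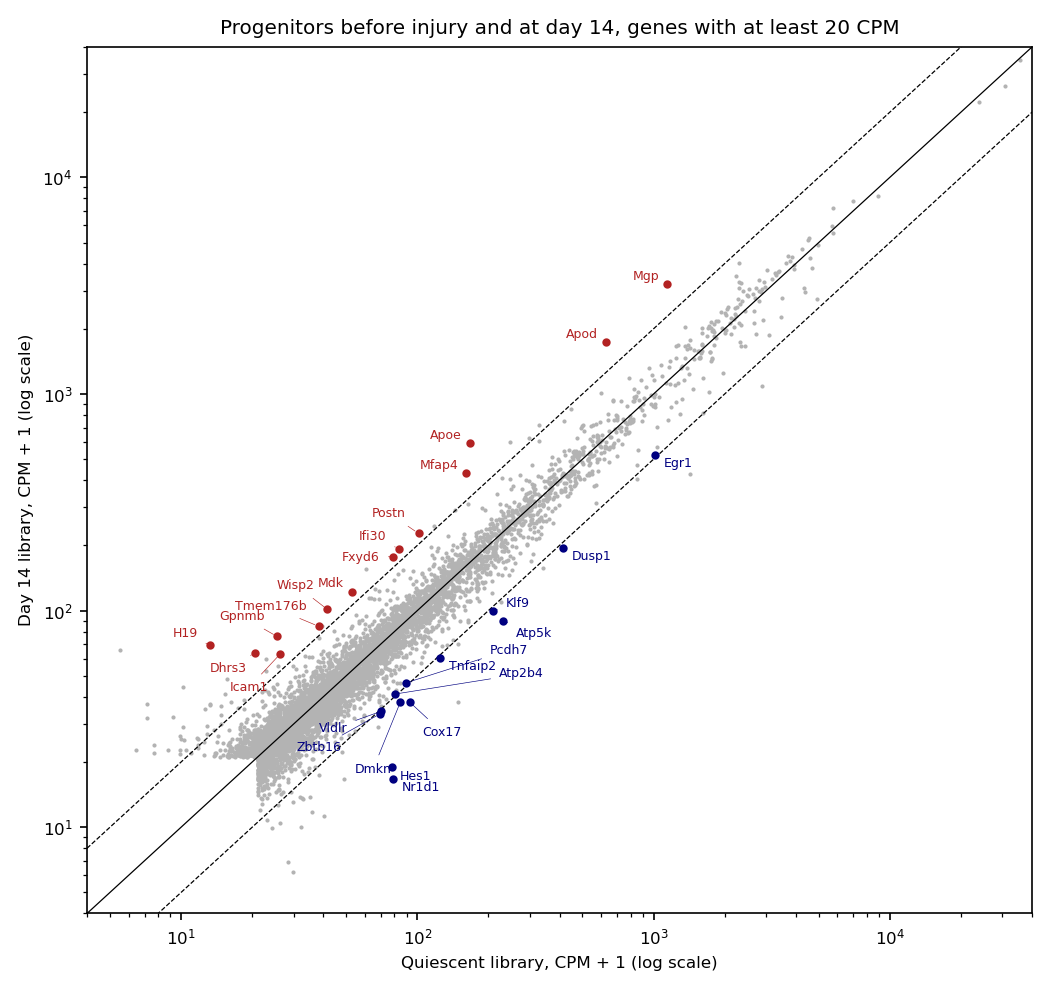
Levels of single genes in progenitors of the quiescent library (x axis) and the day 14 library (y axis), in CPM with 1 added, on log scales, for the 5757 genes that reached 20 CPM in either. The solid line marks equal levels and the dashed lines 2-fold differences; red points are the 14 genes of highest and blue points 13 of the 14 of lowest ratio, which lie on either side of a narrow band that holds 93.4% of the genes within 1.5-fold.

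A few carriers of lipid were among the higher genes. Apoe (GRCm38.p6 chr7:19696244-19701310), which packages cholesterol and other lipids for transport between cells, was at 166 CPM in the quiescent and 591 CPM in the day 14 library, 3.57-fold (3.36 to 3.796) higher. It had been lower during the response, at 16.9 CPM at day 2 and 36.9 CPM at day 4. Apod, a small lipid-binding protein of the lipocalin family, was at 627 CPM in the quiescent and 1732 CPM in the day 14 library, 2.76-fold (2.67 to 2.85) higher. Pltp, which moves phospholipids between lipoproteins, was at 9.17 CPM in the quiescent and 43.5 CPM in the day 14 library, 4.75-fold (3.68 to 6.22) higher. Vldlr, a receptor of Apoe-carrying particles, was called lower, at 69.5 CPM in the quiescent and 33.3 CPM in the day 14 library, 2.09-fold (1.83 to 2.38) lower. In the list of 15 apolipoprotein and lipid transport genes, written after these values were seen, 3 of 9 compared were called higher and 1 lower, 7 members were above 0 and 3 below, and the median log2 ratio was 0.09. Of 8 adipogenic genes compared 2 were called higher, Apoe and Apod, and none lower, and the fat cell regulator Pparg was near the floor at 1.09 and 1.28 CPM. Sterol and fatty acid synthesis genes had 0 of 14 called in either direction.

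Lysosomal genes were mostly on the higher side. Gpnmb, a glycoprotein of lysosome-related vesicles, was at 24.5 CPM in the quiescent and 74.9 CPM in the day 14 library, 3.06-fold (2.605 to 3.61) higher. Ifi30, a thiol reductase that unfolds proteins in lysosomes, was at 82.8 CPM in the quiescent and 192 CPM in the day 14 library, 2.32-fold (2.12 to 2.54) higher. The collagen-cutting protease Ctsk was at 296 CPM in the quiescent and 625 CPM in the day 14 library, 2.11-fold (2.01 to 2.21) higher. Ctsf, another cathepsin, was at 67.7 and 122 CPM, 1.8002-fold (1.63 to 1.996) higher. Gpnmb, Ifi30 and Ctsk were the 3 calls among 27 compared genes of a lysosome list that was also written after the values were seen, and its median log2 ratio was 0.29, with 23 of 28 members above 0. Macrophages are rich in such transcripts; none of the 14 immune markers reached 5 CPM in these cells, and their part in the lysosomal values was not tested.

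Matrix genes differed one by one rather than as a group. Of 30 fibrillar and interstitial matrix genes compared, 3 were called higher and 0 lower, and the list's median log2 ratio was 0.06. Mfap4, a protein of elastic fibres, was at 160.5 CPM in the quiescent and 429 CPM in the day 14 library, 2.67-fold (2.51 to 2.85) higher, after 13.96 CPM at day 1 and 578 CPM at day 4. Postn, periostin, a matrix protein of wounds, was at 100.1 CPM in the quiescent and 226 CPM in the day 14 library, 2.26-fold (2.08 to 2.45) higher, and so had come down from 2723 CPM at day 4 without reaching its quiescent level. Cthrc1, a secreted protein of matrix-forming fibroblasts, was likewise at 6.16 and 36.1 CPM, 5.86-fold (4.31 to 8.15) higher, after 965 CPM at day 4. Mgp, an inhibitor of calcification, was at 1143 CPM in the quiescent and 3207 CPM in the day 14 library, 2.81-fold (2.74 to 2.87) higher. The elastin gene Eln at 1.65-fold (1.57 to 1.75) higher and the collagen genes Col1a1 at 1.43-fold (1.41 to 1.46) higher and Col3a1 at 1.25-fold (1.24 to 1.27) higher stayed under the 2-fold limit.

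Basement membrane genes lay on the other side of 0. Their median log2 ratio was -0.30, with 11 of 14 members below 0, although 1 of 13 compared was called. That gene, Col4a5, a chain of type IV collagen, was at 30.8 CPM in the quiescent and 12.8 CPM in the day 14 library, 2.41-fold (1.96 to 2.97) lower. Lamc1, a laminin chain, was 1.37-fold (1.298 to 1.44) lower and Col4a1 1.33-fold (1.28 to 1.39) lower. None of 17 collagen processing genes was called. Of 10 contractile genes 1 was called, the adhesion gene Cdh11 at 12.7 and 27.1 CPM, 2.13-fold (1.69 to 2.71) higher, and that call was lost when cells rich in Schwann, perineurial, endothelial or immune markers were left out.

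Imprinted genes and growth factors gave single calls. H19 (chr7:142575530-142578146), an imprinted noncoding RNA of growing tissues, had the highest ratio among the named genes with at least 50 CPM, at 12.3 CPM in the quiescent and 68.1 CPM in the day 14 library, 5.53-fold (4.45 to 6.95) higher, after 41.4 CPM at day 2 and 397 CPM at day 4. Igf2, its imprinted neighbour and a fetal growth factor, was at 6.704 and 21.04 CPM, 3.14-fold (2.31 to 4.35) higher, but with the 1 richest cell left out of each library the ratio was 2.96, its day 14 level no longer reached 20 CPM and the call was lost. These were the 2 calls in 12 imprinted genes compared, and that list's median was 0.02. Among growth factors and IGF genes 2 of 14 compared were called higher, Igf2 and Mdk, and 0 lower, with 11 members above 0, 8 below and a median of 0.14. Mdk, midkine, a heparin-binding growth factor, was at 51.7 CPM in the quiescent and 121 CPM in the day 14 library, 2.35-fold (2.096 to 2.64) higher. Wisp2, a matricellular protein that acts on Wnt signalling, was at 40.6 CPM in the quiescent and 100.2 CPM in the day 14 library, 2.47-fold (2.17 to 2.81) higher. Dhrs3, which reduces retinaldehyde and so limits retinoic acid, was at 19.6 CPM in the quiescent and 62.8 CPM in the day 14 library, 3.21-fold (2.68 to 3.86) higher.

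Immune-facing genes were higher in part. Icam1, an adhesion ligand of leukocytes, was at 25.3 CPM in the quiescent and 62.2 CPM in the day 14 library, 2.46-fold (2.09 to 2.899) higher. Of 14 chemokine and cytokine genes compared 1 was called, Ccl19 at 10.8 and 22.97 CPM, while the list's median log2 ratio was 0.44. Cxcl12, which retains blood progenitors and leukocytes in tissue, was at 447 CPM in the quiescent and 851 CPM in the day 14 library, 1.904-fold (1.83 to 1.98) higher. The eosinophil chemokine Ccl11 went the other way, at 1967 CPM in the quiescent and 1252 CPM in the day 14 library, 1.57-fold (1.54 to 1.61) lower. The complement genes C2 at 2.31-fold (1.86 to 2.91) higher and C4b at 2.18-fold (1.91 to 2.49) higher were the 2 calls among 10 compared. Isg15, an interferon-induced protein, was the 1 call among 19 interferon genes, at 24.6 and 54.3 CPM. The last 2 of the 14 highest genes were Fxyd6, a regulator of the sodium pump, at 77.6 and 176 CPM, 2.27-fold (2.07 to 2.498) higher, and the membrane protein gene Tmem176b at 37.2 and 83.6 CPM, 2.25-fold (1.96 to 2.58) higher.

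**Figure D2:**
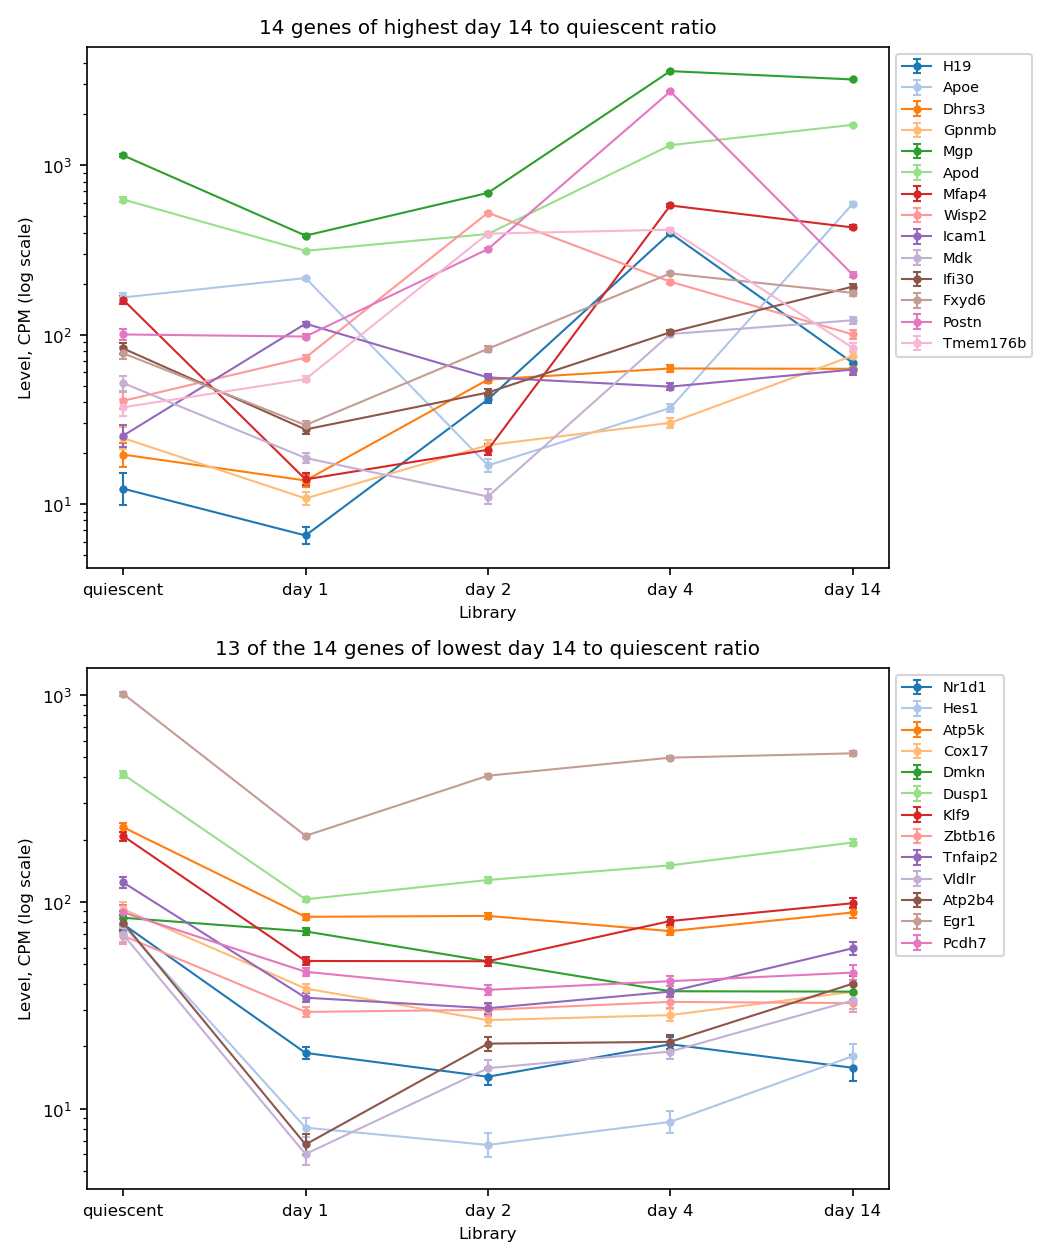
Levels in CPM (log scale) of the 14 genes of highest ratio (top) and 13 of the 14 of lowest ratio (bottom) in progenitors of each of the 5 libraries, chosen by the same rule, with exact Poisson 95% intervals. Postn and H19 peak at day 4, whereas Apoe and Gpnmb are at their highest at day 14. The lower genes drawn are below their quiescent level at day 1 and remain so.

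Genes of the circadian clock were among the lowest. In the clock the activator pair of Arntl (BMAL1) and Clock binds E-box sequences and drives Nr1d1, Nr1d2, Dbp and the Per genes, and the Nr1d1 and Nr1d2 proteins bind AGGTCA-containing elements and repress Arntl. To show these elements beside the levels, windows that hold 1 or both are printed, 300 bases from 250 before to 50 after a start site, 5′ to 3′ on the gene's strand for 3 clock genes and 1 lysosomal gene, from RefSeq on GRCm38.p6. Capitals mark each E-box, CACGTG, and each AGGTCA, searched on both strands. The windows are Per1 at chr11:69098699-69098998 on the plus strand, Nr1d2 at chr14:18239057-18239356 on the minus strand, Arntl at chr7:113207261-113207560 on the plus strand and Ifi30 at chr8:70766614-70766913 on the minus strand.
Per1: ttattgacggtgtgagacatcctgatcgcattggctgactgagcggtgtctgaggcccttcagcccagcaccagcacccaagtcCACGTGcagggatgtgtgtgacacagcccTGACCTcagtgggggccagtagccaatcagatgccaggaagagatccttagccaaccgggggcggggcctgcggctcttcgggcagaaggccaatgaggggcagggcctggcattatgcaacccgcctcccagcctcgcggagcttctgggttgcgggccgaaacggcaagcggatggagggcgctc
Nr1d2: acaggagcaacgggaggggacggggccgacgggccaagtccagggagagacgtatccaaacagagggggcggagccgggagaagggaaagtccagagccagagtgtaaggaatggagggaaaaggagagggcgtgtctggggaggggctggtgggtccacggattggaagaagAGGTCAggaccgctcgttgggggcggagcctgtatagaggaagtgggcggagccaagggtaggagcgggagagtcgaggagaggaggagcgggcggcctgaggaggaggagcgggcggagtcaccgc
Arntl: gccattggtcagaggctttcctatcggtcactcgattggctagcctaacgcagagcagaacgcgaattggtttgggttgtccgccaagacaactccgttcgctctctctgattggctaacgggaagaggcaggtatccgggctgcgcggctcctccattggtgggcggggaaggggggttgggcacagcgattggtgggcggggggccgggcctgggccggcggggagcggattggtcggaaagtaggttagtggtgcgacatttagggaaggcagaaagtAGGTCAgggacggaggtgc
Ifi30: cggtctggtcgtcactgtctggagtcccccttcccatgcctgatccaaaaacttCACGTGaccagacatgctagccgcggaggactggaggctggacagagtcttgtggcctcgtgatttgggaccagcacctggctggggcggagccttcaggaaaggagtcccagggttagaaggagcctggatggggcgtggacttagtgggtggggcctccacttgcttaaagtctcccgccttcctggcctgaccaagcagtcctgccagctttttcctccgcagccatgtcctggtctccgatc
The Per1 window has both, an E-box whose first base is at -166 and an AGGTCA at -137 from the start site. Nr1d2 has an AGGTCA at -77, Arntl 1 at 31 and Ifi30 an E-box at -196. By gene, over all windows of each, an E-box was in 8.09% and AGGTCA in 18.1% of the 27025 genes of the table. Each was in 5 of its 16 clock genes, and in 9 and 5 of its 23 lysosomal genes. The shares of single windows were 7.15% and 16.3% of 32851. The windows of Nr1d1, Dbp, Hlf and Per3, the second window of Per1 and the other window of Arntl hold neither element. Such matches are letters in a window and say nothing of binding.

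The levels of these genes moved in opposite directions. Nr1d1 (chr11:98767932-98775377) had the lowest ratio among the named genes with at least 50 CPM. It was at 77.98 CPM in the quiescent and 15.7 CPM in the day 14 library, 4.95-fold (4.205 to 5.86) lower. Nr1d2 was at 31.1 and 8.99 CPM, 3.45-fold (2.74 to 4.37) lower, and Dbp, a clock-driven activator, at 34.9 and 10.8 CPM, 3.24-fold (2.62 to 4.03) lower. Hlf, of the same family as Dbp, was at 28.9 and 12.1 CPM, 2.38-fold (1.92 to 2.95) lower. Per1 at 35.8 and 17.99 CPM was 1.99-fold (1.66 to 2.39) lower, just under the limit, and Per3 was 1.91-fold (1.66 to 2.21) lower. Arntl, which the Nr1d proteins repress, was 2.93-fold (2.31 to 3.74) higher, at 11.6 and 34.1 CPM. The clock list, written after the values were seen, had 4 of 13 genes called lower and 1 higher, with a median log2 ratio of -0.49. The labels give no time of day for either library.

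Targets of the glucocorticoid receptor were also lower. All 11 members with at least 5 CPM had a log2 ratio below 0, 3 of 11 were called, and the median was -0.78. Klf9, a repressor induced by glucocorticoids, was at 208 CPM in the quiescent and 98.5 CPM in the day 14 library, 2.11-fold (1.96 to 2.28) lower. Zbtb16, a zinc finger regulator, was at 68.5 CPM in the quiescent and 32.4 CPM in the day 14 library, 2.12-fold (1.85 to 2.42) lower. Dusp1, a phosphatase that switches off MAP kinases, was at 413 CPM in the quiescent and 194 CPM in the day 14 library, 2.14-fold (2.02 to 2.25) lower. Fkbp5, a cochaperone of the receptor, was 1.94-fold (1.605 to 2.35) lower, while Tsc22d3 was 1.103-fold (1.05 to 1.16) lower and Sgk1 1.03-fold (0.947 to 1.12) lower. Hsd11b1, which regenerates active glucocorticoid and is one of the split genes used below, was at 348 and 275 CPM. Dusp1 is an early response gene as well. Of 25 genes of early response and dissociation stress it was the 1 call, with 22 below 0 and a median of -0.31. Egr1 was at 1015 CPM in the quiescent and 523 CPM in the day 14 library, 1.94-fold (1.88 to 2.01) lower, and Jun at 1.55-fold (1.501 to 1.61) lower.

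The remaining lower genes came from several pathways. Hes1, a repressor downstream of Notch, was at 76.9 CPM in the quiescent and 17.9 CPM in the day 14 library, 4.29-fold (3.67 to 5.04) lower, having been at 8.08 CPM at day 1. It was the 1 call among 6 Notch and Hedgehog genes. Meis2, a limb homeobox gene, was at 39.4 and 10.3 CPM, 3.83-fold (3.102 to 4.76) lower, and Hoxc8 was 2.08-fold (1.69 to 2.56) lower, while Hoxa9 was 1.69-fold (1.38 to 2.08) higher. The glucose-trapping enzyme gene Hk2 was at 48.2 and 15.7 CPM, 3.06-fold (2.56 to 3.66) lower, whereas the glycolytic Pgk1 was at 14.4 and 40.4 CPM, 2.81-fold (2.27 to 3.504) higher. Also among the 14 lowest were Tnfaip2 at 2.08-fold (1.89 to 2.298) lower, the calcium pump gene Atp2b4 at 1.97-fold (1.75 to 2.23) lower and the protocadherin gene Pcdh7 at 1.96-fold (1.75 to 2.19) lower. Short transcripts of mitochondrial proteins were among them too, Atp5k at 229.6 CPM in the quiescent and 88.8 CPM in the day 14 library, 2.58-fold (2.39 to 2.79) lower, and the copper chaperone gene Cox17 at 2.51-fold (2.22 to 2.83) lower. The 23 genes of an oxidative phosphorylation list had 0 calls and a median of -0.01. Ribosomal protein genes, which the naming leaves out, had 4 lower calls and 1 higher call. Rps28 was at 1419 and 427 CPM and Rps29 at 2868 and 1089 CPM (quiescent and day 14), whereas Rpl9 was at 325 and 720 CPM. Whether the values of Atp5k and Cox17 share a source with these was not tested.

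Genes that define the cells differed little. None of 14 progenitor identity genes was called, and their median log2 ratio was -0.01. Hic1 was at 37.8 CPM in the quiescent and 36.1 CPM in the day 14 library, a ratio of 0.955 (0.8202 to 1.11). Pdgfra, the receptor that marks these cells, was 1.26-fold (1.196 to 1.33) lower, and Ly6a had a ratio of 1.01 (0.993 to 1.03). The stem cell surface gene Cd34 was 1.07-fold (1.05 to 1.1002) higher, and tdTomato 1.35-fold (1.31 to 1.38) higher. Most cell cycle genes were too low to compare: the S phase and G2/M lists had 2 genes each at 20 CPM or above, with none called, and the proliferation gene Pcna had a ratio of 1.08 (0.912 to 1.29). The median log2 ratio of the 9 S phase genes with at least 5 CPM was 0.11. For the 6 such G2/M genes it was -0.28, between -0.74 and 0.09 over the alternative settings, and it was 0.47 in the split-high and -1.36 in the split-low cells described below, where 7 of 8 were below 0. The lists of 2 other progenitor populations had 1 call each. In the list headed by Dmkn, Sbsn and Krtdap 1 of 9 genes was called, Dmkn, at 83.7 CPM in the quiescent and 36.8 CPM in the day 14 library, 2.28-fold (2.01 to 2.58) lower. The list's median log2 ratio was -0.10 with 3 members above 0 and 6 below, and the summed level was 9080 CPM in the quiescent and 9653 CPM in the day 14 library. In the list headed by Clu, Gdf10 and Prg4 the median was 0.53, 8 of 10 members were above 0, and 1 of 7 compared was called, the cartilage matrix gene Comp, 2.69-fold (2.27 to 3.22) higher. Comp is also a tenocyte marker. Its progenitor level was 2.31% of its tenocyte-cell level in the quiescent and 8.31% in the day 14 library. The 2 members of the list below 0 were Prg4, lubricin, at 1.86-fold (1.72 to 2.03) lower, and Clu, at a ratio of 0.544. Fewer cells of such a population and less RNA per cell cannot be told apart in summed counts. After each cell was thinned to 2500 UMIs, Dmkn was found in 6.42% and 3.31% of cells (quiescent and day 14), and in 6.74% and 4.83% unthinned.

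**Figure D3:**
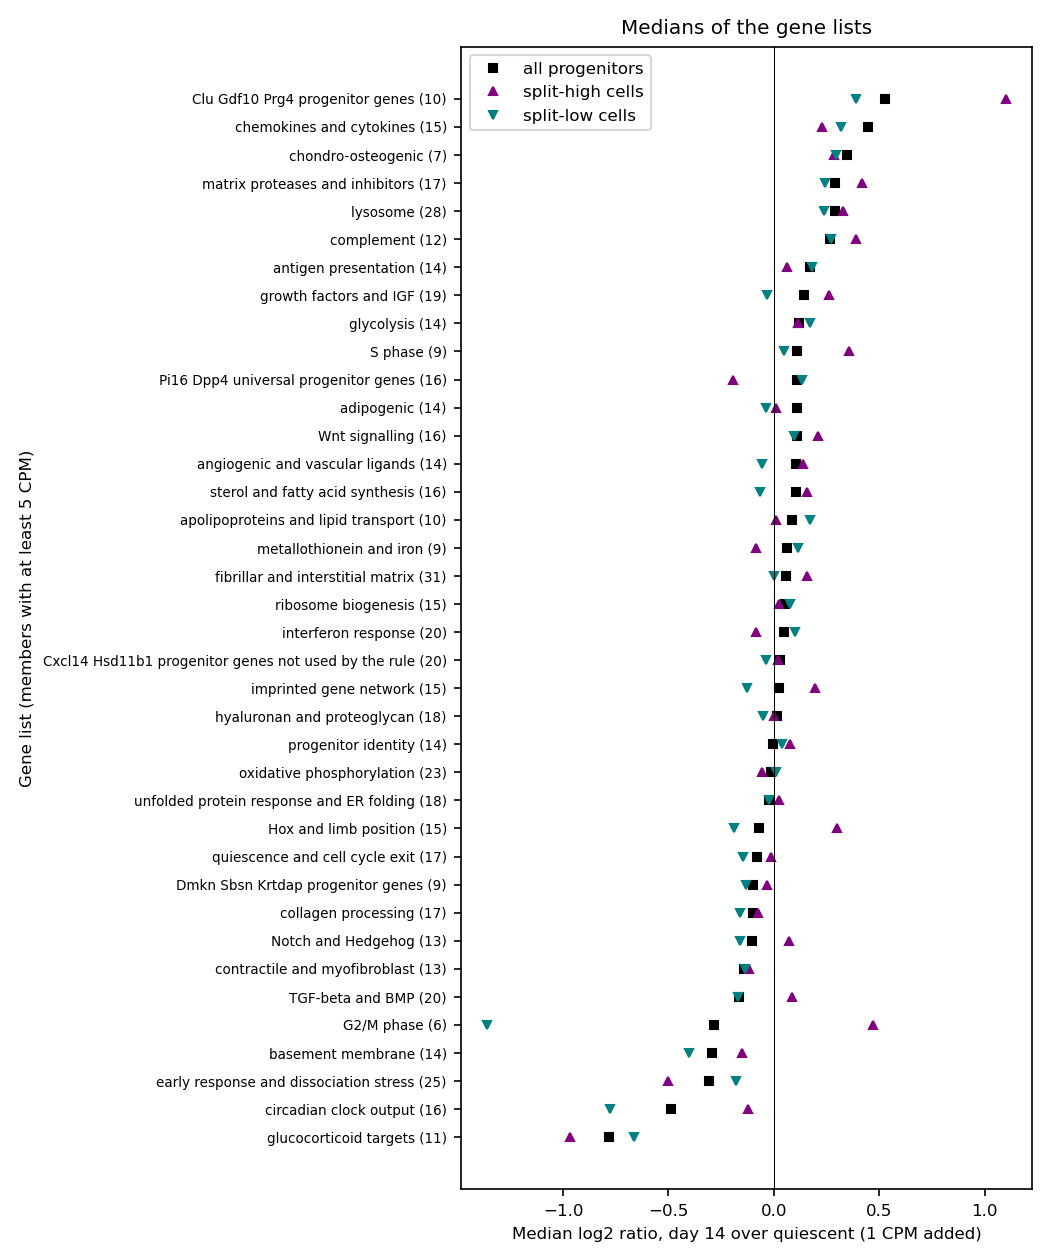
Median log2 ratio, day 14 over quiescent, of each gene list on the x axis, for all progenitors (squares), split-high cells (upward triangles) and split-low cells (downward triangles). Numbers after the list names count members with at least 5 CPM in all progenitors. Most squares lie near 0, and the glucocorticoid list at -0.78 and the clock list at -0.49 lie farthest below it.

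To see where these differences lay, progenitors were divided by the summed UMIs of Hsd11b1, Cxcl14, Mme and Hmcn2. Cells with 3 or more, called split-high, numbered 650 in the quiescent library, 34.2% (32.1 to 36.4), and 826 at day 14, 34.1% (32.2 to 36.0). After thinning to 2500 UMIs the shares were 28.3% (26.02 to 30.6) of 1510 cells and 23.1% (21.3 to 24.998) of 2026 cells, so the equal shares did not hold at equal depth. The split is a cut through a range and not a cell type: 155 quiescent and 202 day 14 cells had 2 such UMIs and 106 and 122 had 3. Median depth in split-high cells was 4007.5 UMIs in the quiescent and 5440.0 UMIs in the day 14 library, and in split-low cells 3737 and 4645.

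More genes passed the 2-fold limit in split-high cells. There 103 genes (1.76% of 5845) were called higher and 73 (1.25%) lower, against 43 (0.751% of 5726) and 43 (0.751%) in split-low cells. When the split-low sums were thinned to the UMIs of the split-high sums, 51 were called higher and 54 lower. Both classes called 30 genes higher, 29.1% of the split-high and 69.8% of the split-low calls, and 26 genes lower, 35.6% and 60.5%. Of the 103 genes called higher in split-high cells, 99 were also above a ratio of 1 in split-low cells, as 70 of the 73 lower ones were below it. Of the difference in the summed level of each of the 28 highest and lowest genes, between -1.997% and 3.63% came from the classes' unequal shares of UMIs, and the rest from within the classes. That division used the split on unthinned cells, where split-high cells held 35.8% of quiescent and 37.4% of day 14 UMIs. It depends on that split and was not repeated on thinned cells.

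Mgp, Postn and H19 were higher in both classes, with the larger ratios in split-high cells. Mgp was at 1001 and 5037 CPM there (quiescent and day 14), 5.03-fold (4.83 to 5.24) higher, and at 1222 and 2114 CPM in split-low cells, 1.73-fold (1.68 to 1.78) higher. Postn was at 29.8 and 226 CPM, 7.57-fold (6.01 to 9.65) higher, in split-high cells, and at 139 and 226 CPM, 1.63-fold (1.48 to 1.78) higher, in split-low cells, so its summed levels in the classes were equal at day 14. H19 was at 6.12 and 94.01 CPM, 15.4-fold (9.35 to 27.1) higher, against 15.8 and 52.6 CPM, 3.34-fold (2.601 to 4.34) higher. Spon2, a matrix protein that binds microbial products, was 3.69-fold (3.08 to 4.45) higher in split-high and 1.22-fold (1.09 to 1.36) higher in split-low cells. In thinned cells Postn was found in 2.13% and 14.7% of split-high cells and 13.2% and 20.2% of split-low cells. Its unthinned share over all progenitors was 11.7% and 25.6%, and tenocyte cells of the same libraries, where Postn is also present, had 40.8% and 62.7%. Of the 12 genes picked for the largest class difference, Ptn, a growth factor related to Mdk, was higher in split-high and lower in split-low cells, at ratios of 2.05 (1.45 to 2.94) and 0.744 (0.629 to 0.881). Clu, a secreted chaperone, had ratios of 1.33 (0.961 to 1.88), an interval that includes 1, and 0.435 (0.3701 to 0.5096).

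Apoe and Mfap4 were higher in both classes. Apoe was 2.94-fold (2.73 to 3.17) higher in split-high cells, from 326 to 959 CPM, and 4.86-fold (4.36 to 5.44) higher in split-low cells, from 76.5 to 372 CPM. In thinned cells it was found in 17.6% and 40.8% of split-high and 5.39% and 20.4% of split-low cells, and unthinned in 12.8% and 35.4% of all progenitors. Mural cells had Apoe in 15.4% and 12.2%, of 13 and 139 thinned cells. Mfap4 was 2.46-fold (2.29 to 2.63) higher in split-high and 3.39-fold (2.87 to 4.03) higher in split-low cells, where its level was lower, at 34.9 and 118 CPM. Nr1d1 at 5.97-fold (4.54 to 7.92) lower and 4.43-fold (3.603 to 5.48) lower and Hes1 at 4.47-fold (3.45 to 5.83) lower and 4.197-fold (3.44 to 5.14) lower were lower alike in split-high and split-low cells. In thinned cells Nr1d1 was found in 16.9% and 3.55% and Hes1 in 15.6% and 4.24% of all progenitors.

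Other genes were called lower in split-high and not in split-low cells, a difference that was not tested. Ptgis, prostacyclin synthase, was at 40.5 and 11.2 CPM in split-high cells, 3.63-fold (2.58 to 5.16) lower, and at a ratio of 1.13 (1.002 to 1.28) in split-low cells. Pgf, placental growth factor, was 2.49-fold (1.98 to 3.14) lower against a ratio of 1.06 (0.902 to 1.24). The phosphatase gene Alpl was 3.23-fold (2.44 to 4.299) lower, from 55.5 to 17.2 CPM, and its split-low level, 5.33 and 3.98 CPM, was under the 20 CPM needed for a call. The stress genes Hspa1a, at ratios of 0.773 (0.7496 to 0.798) and 1.62 (1.57 to 1.67), and Gadd45g, at 0.664 (0.621 to 0.709) and 1.44 (1.37 to 1.51), were lower in split-high and higher in split-low cells. Dmkn and Prg4 were called lower in split-low and not in split-high cells. In split-low cells Dmkn was 2.28-fold (2.01 to 2.58) lower and Prg4 2.17-fold (1.97 to 2.39) lower. Glucocorticoid targets had 6 of 11 genes called lower in split-high and 3 of 11 in split-low cells, with medians of -0.97 and -0.67. The clock list had 4 of 13 and 5 of 12 called lower, with medians of -0.12 and -0.78.

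**Figure D4:**
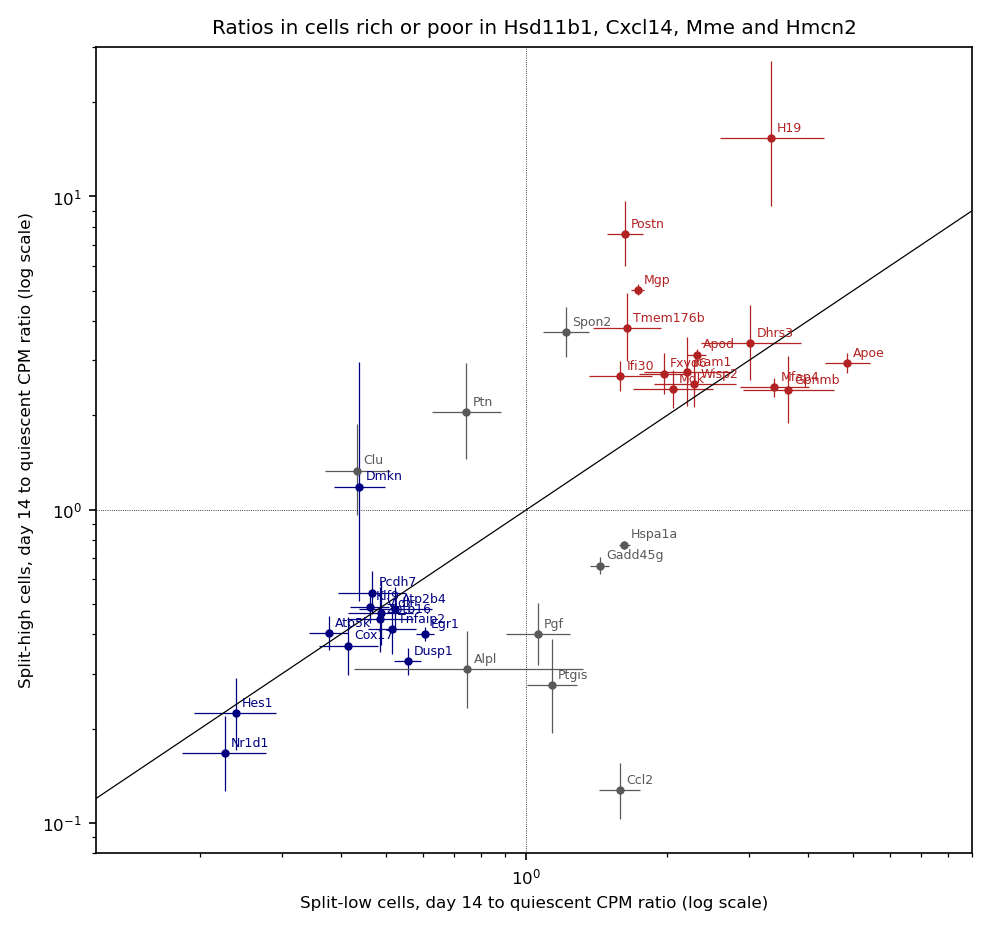
Ratio of CPM, day 14 over quiescent, in split-low cells (x axis) and split-high cells (y axis), on log scales, with 95% counting intervals. Red points are the 14 highest genes, blue 13 of the 14 lowest and grey the genes chosen for their class difference; Mgp, Postn and H19 lie above the line of equal ratios, Apoe below it, and most blue points on or near it.

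The tendon and mural cells that the rule set aside came from the same 2 libraries and allow the same ratio. Over 126 quiescent and 804 day 14 tenocyte cells, 11 of the 14 highest genes were above a ratio of 1, 4 of them at least 2-fold. Of the 14 lowest, 13 were below 1, 7 of them at least 2-fold. Among the 5892 genes with at least 20 CPM in these cells, 5.57% were at least 2-fold higher and 3.34% lower. Intervals lay above 1 for 9 of the 14 highest and below 1 for 2. For the 14 lowest, 8 lay below 1 and 0 above. The shares of all genes on each side of 1, by ratio or by interval, were not counted in these cells. Apoe was 4.5004-fold (3.92 to 5.197) higher, Dhrs3 3.13-fold (2.16 to 4.702) higher, Gpnmb 2.08-fold (1.55 to 2.85) higher and Ifi30 2.19-fold (1.596 to 3.07) higher in tenocyte cells. Apod, at 1.18-fold (1.09 to 1.28) lower, and Wisp2, at 2.01-fold (1.34 to 2.94) lower, went the other way there. H19 had a ratio of 0.911 (0.529 to 1.68), an interval that lies below its ratio in progenitors. Mgp at 1.19 (1.15 to 1.23), Postn at 1.303 (1.204 to 1.41) and Fxyd6 at 1.03 (0.889 to 1.19) differed less than in progenitors.

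Mural cells allowed the same comparison, from a quiescent sum of 196686 UMIs. Of the 14 lowest, 12 were below a ratio of 1 in 112 quiescent and 243 day 14 mural cells, 9 of them at least 2-fold. Of the 14 highest, 9 were above 1, 3 of them at least 2-fold. Among the 7259 genes with at least 20 CPM in mural cells, 10.5% were at least 2-fold lower and 8.83% higher. Intervals lay above 1 for 3 of the 14 highest and below 1 for 2. For the 14 lowest, 8 lay below 1 and 0 above. Here too the shares of all genes on each side of 1 were not counted. Nr1d1 was 3.63-fold (2.47 to 5.24) lower in tenocyte and 3.97-fold (2.08 to 7.56) lower in mural cells. Hes1 was 9.93-fold (6.26 to 15.8) lower and 2.74-fold (1.68 to 4.41) lower, and Klf9 2.56-fold (2.03 to 3.21) lower and 2.097-fold (1.49 to 2.93) lower. The clock genes Nr1d2 and Dbp were lower as well, Dbp at 2.14-fold (1.22 to 3.59) lower and 6.93-fold (3.23 to 15.5) lower. Atp5k at 2.65-fold (2.18 to 3.21) lower and 2.27-fold (1.71 to 2.99) lower did the same. Mgp was 1.99-fold (1.83 to 2.16) lower in mural cells. The differences of Nr1d1, Hes1, Klf9, Dbp and Atp5k were thus present in the progenitor, tenocyte and mural cells of these libraries, and the part of the library in them was not tested.

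**Figure D5:**
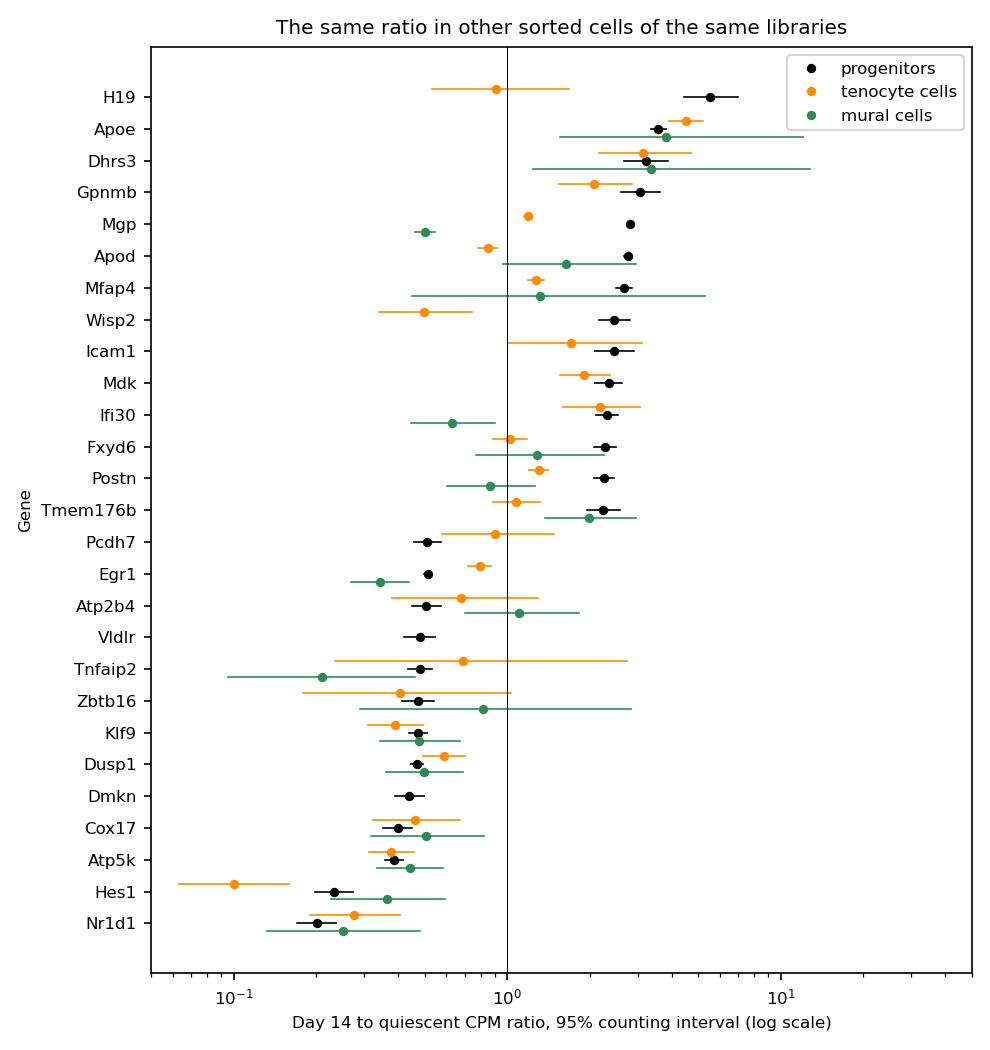
Ratio of CPM, day 14 over quiescent (log scale), with 95% counting intervals, for the 14 highest genes (top) and 13 of the 14 lowest (bottom) in progenitors (black), tenocyte cells (orange) and mural cells (green). Genes with fewer than 20 UMIs over both libraries of a class are not drawn for it. Orange and green points of the lower genes mostly lie left of 1 with the black ones, while H19, Wisp2, Apod and Fxyd6 are higher in progenitors and not in tenocyte cells.

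Transcripts of neighbouring cell types moved with some calls. Leaving out 9 quiescent and 29 day 14 cells rich in Schwann, perineurial, endothelial or immune markers brought the 60 higher calls to 54, all among the 60. Among the lost were Acp5, Cdh11, Sbspon, the myelin gene Mbp and the perineurial glucose transporter gene Slc2a1. The tendon genes Tnmd, at 15.3 and 36.7 CPM, and Fmod were among the 60 although the rule limits them. In progenitors Tnmd was at 0.346% of its tenocyte-cell level in the quiescent and 0.571% in the day 14 library, and Fmod at 0.1397% and 0.359%. With the limits at 2 UMIs these calls and those of Acp5 and Rpl13a-ps1 were lost and 56 of the 60 remained, and with 3 others gained the total was 59. Tnmd and Fmod are summed in the tendon limit itself, so a lower limit cuts their counts directly and their loss is no check. None of the 37 lower calls was lost with these cells left out or with the limits at 2 UMIs. Mbp had been at 6.16 and 30.8 CPM.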

How the data were processed

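The tables deposited by the authors hold UMI counts of genes in barcoded cells, from 10x Chromium 3' v2 chemistry per the labels. Cell Ranger and mm10 are named, per the submitters' processing notes, while how cells were called, and with which version, is not given in the sources used here, per library or overall. The counts were whole numbers in tables of 28001 features, and rows sharing a symbol were summed to 27936 symbols. Counts were summed over the kept cells and scaled to CPM of that sum. Ratios have exact conditional binomial 95% intervals, levels Poisson intervals and shares exact Clopper-Pearson ones. A prior of 1 CPM enters each library's log2 ratios, and 3 counts, the limit used where a gene is at 0, equal 0.4104 CPM in the quiescent and 0.241 CPM in the day 14 library.

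Genes that reached 20 CPM in either library were compared and called at 2-fold. Named genes were the 14 highest and 14 lowest log2 ratios with at least 50 CPM, leaving out the genes of the rule, ribosomal, mitochondrial, haemoglobin, predicted and sex-linked genes and markers of other cell types. To these came 6 genes each way of largest class difference, 5 fixed genes and at most 4 genes of each list. Other genes named beside a count were chosen after their values were seen. Members, lists and rules were chosen with earlier results of these data known, and 3 lists (clock, lysosome, apolipoproteins) after the values were seen. TMM (edgeR 4.0.16) and DESeq2 1.42.0 factors served as alternative scalings (R 4.3.3, Python 3.11.15). Ratios, intervals and calls were tested on simulated sums with counting error only, which hold no variation between cells or between libraries. Some genes of the lists and counts are not reported here. Start sites and promoter windows came from RefSeq on GRCm38.p6.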

Additional observations from a re-analysis of the deposited data

Results flagged for a closer look

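Ccl2, the monocyte chemokine, moved in opposite directions in the 2 classes, with intervals on either side of 1, and that difference was not tested. Its day 14 to quiescent ratio was 0.127 (0.103 to 0.156) in split-high cells, from 194 to 24.7 CPM, and 1.58 (1.43 to 1.75) in split-low cells, from 114 to 181 CPM. In the quiescent split-high cells 317 of 508 Ccl2 UMIs came from 1 cell. With the richest cell left out of each library the ratios were 0.279 and 1.59. Over all progenitors the ratio was 0.857 (0.791 to 0.928) with and 1.11 without these cells.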

How the results depend on the processing

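Counts of called genes depended on the level required and on the split. With at least 50 CPM there were 25 higher and 19 lower genes in all progenitors, 48 and 44 in split-high cells and 19 and 24 in split-low cells. With at least 5 CPM there were 156 and 92, 377 and 208, and 148 and 131, in the same order. Thinning cells to 2500 UMIs gave 66 higher genes in split-low cells, and making the split on thinned cells gave 178 higher and 126 lower genes in split-high and 67 higher in split-low cells. The split-high share was 42.4% in both libraries at a limit of 2 UMIs (42.4% quiescent, 42.4% day 14), 24.8% and 25.04% at 5 UMIs, and 28.3% and 23.1% after thinning. TMM or DESeq2 factors shifted the day 14 to quiescent ratio by at most 0.02 on the log2 scale. Of 26 named genes called at 2-fold, 23 were called under each of 10 settings; Dmkn, Klf9 and Zbtb16 were not, Dmkn being 1.85-fold lower by the mean of CPM per cell. All 28 highest and lowest genes kept their direction under these 10. No paired analysis was possible because each group is 1 library, and no library could be left out for the same reason. With 1 library a group, no difference has a replicate check. At 20 CPM the quiescent sums of tenocyte and mural cells, of 505995 and 196686 UMIs in all, hold few UMIs.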
